A study of Homo sapiens with 4 samples.

Results

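The 42 genes described here encode the core machinery that copies nuclear DNA, and their RNA was compared between naïve human ESCs of a flat and a scaffold culture. The list was defined by symbol and falls into 5 classes. Licensing holds 9 genes (ORC1, ORC2, ORC3, ORC4, ORC5, ORC6, CDC6, CDT1 and GMNN), and the helicase holds 12 (MCM2 to MCM7, MCM10, CDC45 and GINS1 to GINS4). The polymerases are 10 genes (POLA1, POLA2, PRIM1, PRIM2, POLD1 to POLD3 and POLE, POLE2 and POLE3). The sliding clamp and its loader are 6 genes (PCNA and RFC1 to RFC5), and 5 genes serve single-stranded DNA and the lagging strand (RPA1 to RPA3, FEN1 and LIG1). Each symbol was matched through its Ensembl identifier to 1 of the 60564 genes listed in the count files, and all 42 passed the filter on low counts, so no gene of the list is missing below.

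RNA-seq was performed on 4 libraries of Elf1, a naïve human ESC line, with 2 independent biological replicates for each of 2 culture conditions. The 2-D cells grew attached to plastic coated with Matrigel, a basement membrane gel. The 3-D cells were enclosed as single cells in scaffolds that self-assemble from PEG-8-SH and PEG-8-Acr, branched polyethylene glycols ending in thiol and acrylate groups, and stayed there for 21 days in ESC expansion medium. The methods name FGF2, LIF and the inhibitors CHIR99021 and PD03296501 in the medium in which the line was kept. Both conditions share the cell line, so the values hold for 1 genotype, and the cells had been moved off mouse feeder cells before they were enclosed.

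DNA replication is prepared in G1, when the origin recognition complex, CDC6 and CDT1 load the MCM2 to MCM7 ring onto DNA, a step called licensing that geminin (GMNN) blocks outside G1. In S phase CDC45 and the GINS complex join the ring to form the active helicase, polymerase alpha with primase lays down primers, polymerase epsilon extends the leading strand and polymerase delta the lagging strand. Many of these genes are transcribed under E2F factors as cells enter S phase, and human ESCs are known for a short G1 and a large share of cells in S phase.

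Library totals ran from 18276147 to 33833778 counts, and both 2-D libraries were deeper than both 3-D libraries. Of 22555 genes tested with edgeR's quasi-likelihood method, 7.9% had a Benjamini-Hochberg adjusted p below 0.05, and such genes are called here. The SE beside a change is its standard error on the log2 scale. The biological coefficient of variation was 5.10%. The cells carried general pluripotency markers, which do not tell naïve from other pluripotent cells, and markers of the naïve state were not checked. All 7 were tested, and their summed level was 5972 and 5924 normalized CPM (CPM, counts per 10⁶ counts of the library after TMM scaling) in 2-D and 6266 and 6153 in 3-D, with 1 of the 7 called higher. Of 8 fibroblast markers 6 were tested and 3 were called higher in 3-D, with a summed level of 458 to 466 normalized CPM in 2-D and 468 to 512 in 3-D. The 3 were COL1A1, COL3A1 and POSTN, with log2 fold changes of 0.29, 0.73 and 0.65, while COL1A2, the highest of the list at 301 to 325 normalized CPM, was not called and DCN and LUM lay under 1 normalized CPM in every library. Of 9 germ layer markers 6 were tested and none was called by this test, with 2 at an unadjusted p under 0.05 and a summed level of 74.6 to 75.0 normalized CPM in 2-D and 80.3 to 81.6 in 3-D. The part of these markers and of the depth in the differences of the replication genes was not tested, except where values with thinned 2-D counts are given.

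The replication genes had similar summed RNA levels in both cultures, and the genes called within them changed by small amounts in either direction. Their summed level was 3933 and 3944 normalized CPM in 2-D and 3965 and 4031 in 3-D. The median log2 fold change of 3-D over 2-D was 0.025 over the 42 genes and −0.00014 over all tested genes, and the 42 values ran from −0.35 (RPA3) to 0.23 (POLD2). Of the 42 genes, 8 were called, which is 19.0% beside 7.9% of all tested genes and 14.0% of the 10102 tested genes within the same range of mean level. The genes called higher in 3-D were MCM5, POLD2 and RFC1, 3 of 42 where 4.54% of all tested genes were called higher. The genes called lower were ORC4, ORC6, GMNN, RPA1 and RPA3, 5 of 42 where 3.36% of all tested genes were called lower. Shares by direction were not computed within that range of level. The counts by class below stand beside shares of all tested genes, which include genes of lower level and were called less often. All these shares are a description, since the list was chosen with earlier results of these data known. The same holds for the other lists and the motifs below. In bulk RNA, fewer cells that express a gene and less of its RNA per cell cannot be told apart.

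**Figure D1:**
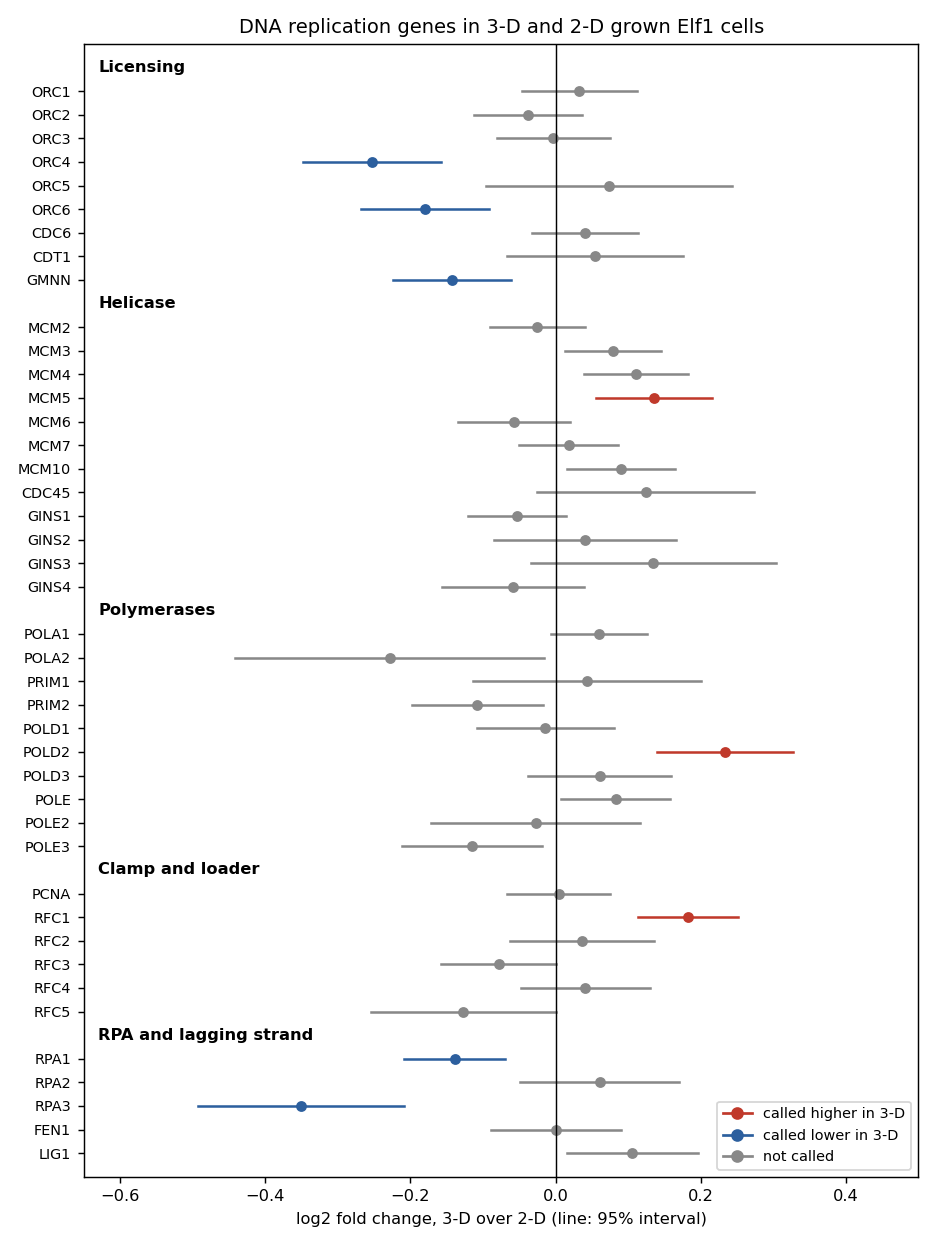
Log2 fold change of 3-D over 2-D for each of the 42 genes by class on the x axis, with lines for 95% intervals and colour for the call by edgeR's quasi-likelihood test. The 42 points lie between −0.35 and 0.23, with 3 genes called higher, 5 called lower and 34 not called.

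The other 34 genes were not called, and their 95% intervals of the log2 fold change lay between −0.44 (POLA2) and 0.30 (GINS3). Standard errors over the 42 genes ran from 0.030 to 0.098, and the largest belonged to POLA2, the gene with the fewest counts, at 157 to 349 per library. On simulated counts of 22555 genes the test called 16.7% of genes changed by 0.25 on the log2 scale and 27.0% of those changed by 0.5, over genes of all levels. That rate was not computed for genes at the level of the 42, whose median SE was 0.041. The libraries of the conditions did not overlap for 26 of the 42 genes, where 50.5% of all tested genes did not overlap. Both 3-D libraries were higher for 14 of them, beside 25.4% of all tested genes, and lower for 12, beside 25.1%.

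Many promoters of this machinery are known for E2F sites, and windows with the letters of that site are shown as a sequence feature that part of the list shares. Promoters of 250 bases before to 50 bases after a start site came from RefSeq on GRCh38.p14, and 36 of the 42 genes matched an entry. MCM4, MCM5, GINS4, POLD3, RPA2 and RPA3 had none. The E2F letters searched were TTTGGCGC, TTTCCCGC, TTTGCCGC and TTTCGCGC on both strands, where matches may share bases with each other or with another motif. They occurred in 18 of the 36 genes and in 3.31% of the 35116 promoters in the table, or 3.99% of its 27305 genes. Each window below is centred on 1 match, in capitals, with 11 bases to either side, and the windows of MCM2 and MCM6 also hold a match on the other strand that overlaps the capitals and runs on into lower case, for 4 ring subunits, the loading factor CDC6, the inhibitor GMNN and the clamp PCNA, each written 5′ to 3′ on the strand of the gene.
MCM2, chr3:127598402-127598431, + strand: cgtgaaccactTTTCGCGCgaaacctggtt
MCM3, chr6:52284728-52284757, − strand: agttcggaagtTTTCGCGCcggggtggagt
MCM6, chr2:135876577-135876606, − strand: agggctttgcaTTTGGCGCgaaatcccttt
MCM7, chr7:100101388-100101417, − strand: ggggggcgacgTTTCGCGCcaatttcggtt
CDC6, chr17:40287875-40287904, + strand: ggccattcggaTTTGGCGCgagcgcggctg
GMNN, chr6:24775322-24775351, + strand: gctgggtcggtTTTGGCGCgctctcacttc
PCNA, chr20:5126663-5126692, − strand: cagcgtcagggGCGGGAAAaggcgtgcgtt

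The 18 genes with these letters included 1 called gene, GMNN, and the 18 without them included 5, ORC4, ORC6, POLD2, RFC1 and RPA1. The median log2 fold change was 0.011 with the letters, over a range from −0.23 to 0.13, and 0.017 without them, over a range from −0.25 to 0.23. The difference between these groups was not tested. CCAAT, the letters of the box bound by NF-Y, occurred on either strand in 21 of the 36 genes, beside 39.7% of all genes in the table and 34.6% of all promoters. GGGCGG, the GC box bound by SP1, occurred in 27 of the 36 genes, beside 48.3% of all genes and 45.0% of all promoters. The cell cycle homology element, searched as TTTGAA and TTCGAA, occurred in 2 of the 36 genes (MCM6 and POLE3), beside 19.5% of all genes and 16.4% of all promoters. A match of letters is a description of these windows only.

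**Figure D2:**
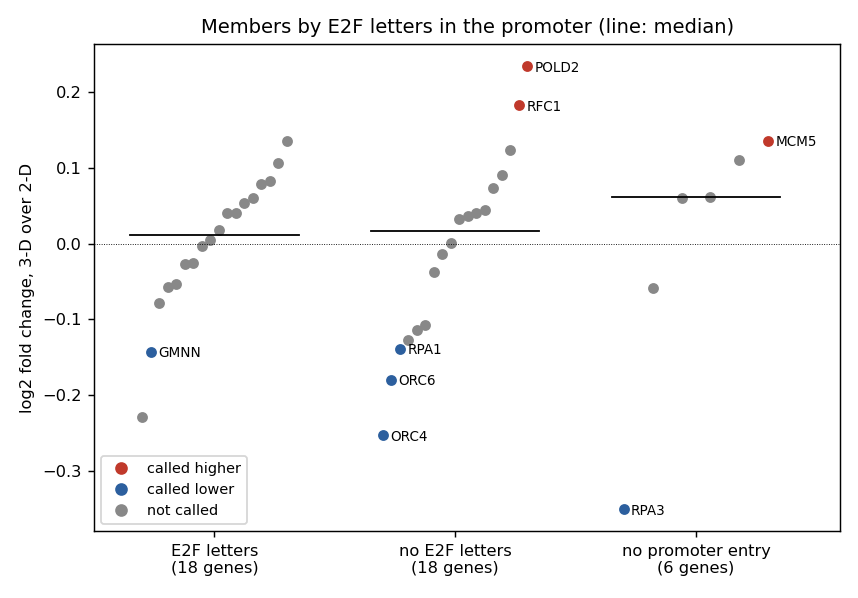
Log2 fold change of 3-D over 2-D (y axis) of the 42 genes, split by whether the promoter held E2F letters, did not, or had no entry, with a line at each median. The medians of the first and second groups are 0.011 and 0.017, and 5 of the 6 called genes that have a promoter entry lie in the group without the letters. Of all tested genes 7.9% were called, and the difference between the groups was not tested.

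In licensing, 3 of 9 genes were lower in 3-D, where 3.36% of all tested genes were, and none was higher. ORC4 and ORC6 fell, the subunits of the origin recognition complex with the lowest and the highest RNA level per canonical transcript length. GMNN, the inhibitor of loading, fell as well. ORC4, an ATPase subunit of the complex, lies on chromosome 2 from 147930396 to 148021604 (GENCODE release 44, hg38). It had 59.5 and 61.3 normalized CPM in 2-D and 49.6 and 51.8 in 3-D. Both 3-D libraries lay below both 2-D libraries. ORC4 fell by 16.1%, a log2 fold change of −0.25 (SE 0.044, edgeR adjusted p = 0.00369, n = 2 libraries each). It kept its call when any 1 library was left out. Of its exons, 4.83% overlap ACVR2A and 1.76% MBD5 on the opposite strand. Its promoter entries held no E2F letters. A stretch upstream of the annotated gene, chr2:148021685-148021755 on the − strand, holds 0 GC boxes and is not shown. The stretch shown here, chr2:148020764-148020913 on the − strand, lies inside the annotated span and is free of annotated exons. It runs from 176 to 27 bases before an internal start site and carries 3 GC boxes, in capitals.
ORC4: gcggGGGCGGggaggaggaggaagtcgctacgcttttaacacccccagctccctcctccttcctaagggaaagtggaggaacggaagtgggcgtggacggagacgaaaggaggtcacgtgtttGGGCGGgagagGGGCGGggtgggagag

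ORC6, the subunit of the complex that is least like the others and helps in DNA binding, lies on chromosome 16 from 46689643 to 46698394. It had 62.1 and 60.8 normalized CPM in 2-D and 54.3 and 54.2 in 3-D, with no overlap and 3-D values that nearly coincide. ORC6 fell by 11.7%, a log2 fold change of −0.18 (SE 0.041, edgeR adjusted p = 0.0172). The call was lost without 2-D replicate 1 (edgeR adjusted p = 0.182) and without 2-D replicate 2 (0.0974), and with DESeq2 (0.155) and edgeR's likelihood ratio test (0.0763). GMNN, which encodes geminin, lies on chromosome 6 from 24774931 to 24786099. It had 74.0 and 71.9 normalized CPM in 2-D and 66.6 and 65.6 in 3-D, again with every 3-D library lower. GMNN fell by 9.42%, a log2 fold change of −0.14 (SE 0.037, edgeR adjusted p = 0.0345). Its call was lost with 2-D counts thinned to the mean 3-D total (edgeR adjusted p = 0.0569) and without 2-D replicate 1, 2-D replicate 2 or 3-D replicate 2 (0.349, 0.153 and 0.0784). It was also lost with DESeq2 (adjusted p = 0.258), edgeR's likelihood ratio test (0.159), limma-trend (0.0635) and an offset for exonic length (0.0644).

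The other 6 licensing genes were not called. CDC6 and CDT1, which load the ring, and of which CDT1 is the target of geminin, had log2 fold changes of 0.041 and 0.054. CDC6 had 113 and 114 normalized CPM in 2-D and 114 and 120 in 3-D. CDT1 had 40.8 and 39.8 in 2-D and 40.3 and 43.4 in 3-D. The libraries of the conditions overlapped in both genes. ORC1, the large ATPase subunit, had 0.033, ORC2 had −0.038, ORC3 had −0.0029 and ORC5 had 0.073 as log2 fold change. The median over the 9 genes was −0.0029.

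In the helicase, 1 of 12 genes was called, beside 7.9% of all tested genes. It was MCM5, which was higher in 3-D. The median log2 fold change of the class was 0.060, and 8 of its 12 fitted values were above 0. MCM5, a subunit at the gate through which the ring opens, lies on chromosome 22 from 35400134 to 35425431. It had 172 and 173 normalized CPM in 2-D and 182 and 197 in 3-D. The 3-D libraries were both higher but stood further apart than the 2-D libraries. MCM5 rose by 9.84%, a log2 fold change of 0.14 (SE 0.037, edgeR adjusted p = 0.0427). Without 3-D replicate 2 the log2 fold change was 0.079 and the call was lost (edgeR adjusted p = 0.0826), as it was without 2-D replicate 1 (0.143) or 2-D replicate 2 (0.173). It was also lost with DESeq2 (adjusted p = 0.0998), edgeR's likelihood ratio test (0.165), at least 10 counts in every library (0.0526), library size only (0.303), limma-trend (0.0689) and an offset for exonic length (0.0566).

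The other ring subunits were not called. MCM4 had 390 and 387 normalized CPM in 2-D and 409 and 431 in 3-D, a log2 fold change of 0.11 (SE 0.033, edgeR adjusted p = 0.0631), and it passed the threshold without 3-D replicate 1 (5.76e-05), with the replicate block (0.0414) and with no filter on low counts (0.00556). MCM3 had 260 and 259 in 2-D and 278 and 270 in 3-D, a log2 fold change of 0.079 (SE 0.030, edgeR adjusted p = 0.147), which passed the threshold without 3-D replicate 2 (0.00944) and in none of the other 14 alternatives. In both genes the 3-D libraries lay above the 2-D libraries. MCM2 had a log2 fold change of −0.025, MCM6 of −0.057 and MCM7 of 0.018, and their libraries overlapped between conditions. MCM6 was called lower without 3-D replicate 1 (log2 fold change −0.11, edgeR adjusted p = 0.00951) and with library size only (0.0427), and its value was −0.0065 without 3-D replicate 2. Of the exons of MCM2, 23.6% overlap a gene on the opposite strand. The windows of MCM2, MCM3, MCM6 and MCM7 shown above each hold E2F letters, and none of these 4 genes was called by edgeR's quasi-likelihood test, although MCM3 had an unadjusted p of 0.0225.

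The factors that turn the loaded ring into a helicase were not called either. MCM10, needed for activation, had 79.6 and 81.4 normalized CPM in 2-D and 86.0 and 85.3 in 3-D, a log2 fold change of 0.090. CDC45 had 24.7 and 24.1 in 2-D and 25.5 and 27.7 in 3-D, a log2 fold change of 0.12 with a 95% interval from −0.026 to 0.27. The libraries of these genes did not overlap, with 3-D higher. The GINS subunits had log2 fold changes of −0.053 (GINS1), 0.040 (GINS2), 0.13 (GINS3) and −0.059 (GINS4), and genes on the opposite strand overlap 10.9% of the exons of GINS3 and 21.0% of those of GINS4.

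In the polymerases, 1 of 10 genes was called, beside 7.9% of all tested genes, and it was a subunit without catalytic activity. POLD2, the small subunit that joins the catalytic subunit of polymerase delta to its other subunits, lies on chromosome 7 from 44114631 to 44124358. It had 50.1 and 51.4 normalized CPM in 2-D and 58.7 and 60.6 in 3-D. Both 3-D libraries were higher than both 2-D libraries, by more than either pair differed within itself. POLD2 rose by 17.6%, a log2 fold change of 0.23 (SE 0.043, edgeR adjusted p = 0.00528), the largest increase of the 42 genes. It was called without any 1 library, and no annotated gene overlaps its exons. The stretch shown, chr7:44123669-44123798 on the − strand, lies inside the annotated span of the gene. It runs from 250 to 121 bases before an internal RefSeq start site and holds no E2F letters and 1 GC box, in capitals.
POLD2: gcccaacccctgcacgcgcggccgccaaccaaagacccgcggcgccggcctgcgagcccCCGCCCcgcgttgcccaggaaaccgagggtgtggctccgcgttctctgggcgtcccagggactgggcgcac

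The partners of POLD2 did not pass the test. POLD1, the catalytic subunit, had 57.0 and 58.9 normalized CPM in 2-D and 56.0 and 58.9 in 3-D, a log2 fold change of −0.014 (95% interval −0.11 to 0.080). POLD3 had 50.3 and 48.9 in 2-D and 52.4 and 51.1 in 3-D, a log2 fold change of 0.061. Of the exons of POLD1, 8.63% overlap another gene on the same strand, so its counts are uncertain. Whether POLD2 differed from its partners was not tested. For polymerase epsilon, the catalytic POLE had a log2 fold change of 0.083 and passed the threshold without 3-D replicate 1 (edgeR adjusted p = 0.00266), the accessory POLE2 had −0.028, and POLE3, a subunit with a histone fold, had −0.11.

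In polymerase alpha and primase no gene was called by edgeR's quasi-likelihood test, although POLA2 and PRIM2 had an unadjusted p under 0.05. POLA2, the regulatory subunit, had 10.1 and 10.2 normalized CPM in 2-D and 8.56 and 8.76 in 3-D, so both 3-D libraries were lower. Its log2 fold change was −0.23 (SE 0.098, edgeR adjusted p = 0.197), close in size to that of the called ORC4 but with an interval from −0.44 to −0.016. PRIM2, the large primase subunit, had 71.8 and 68.2 in 2-D and 63.5 and 66.5 in 3-D, a log2 fold change of −0.11. The catalytic POLA1 and the small primase subunit PRIM1 had 0.060 and 0.044. Of the exons of POLA2, 16.8% overlap another gene on the same strand, so its counts are uncertain. The counts of PRIM1 are uncertain too, since 10.9% of its exons overlap 1 gene on the same strand and 4.20% overlap NACA.

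Among the clamp and its loader, 1 of 6 genes was called, beside 7.9% of all tested genes, and it was higher in 3-D. RFC1, the large subunit of the clamp loader, lies on chromosome 4 from 39287456 to 39366375. It had 127 and 132 normalized CPM in 2-D and 147 and 146 in 3-D, with the 3-D libraries close together and above both 2-D libraries. RFC1 rose by 13.5%, a log2 fold change of 0.18 (SE 0.031, edgeR adjusted p = 0.00354). Without 2-D replicate 1 the value was 0.15 and the call was lost (edgeR adjusted p = 0.0602). The stretch before its start site, chr4:39366376-39366525 on the − strand, from 163 to 14 bases upstream, has 1 GC box, in capitals, and no E2F letters.
RFC1: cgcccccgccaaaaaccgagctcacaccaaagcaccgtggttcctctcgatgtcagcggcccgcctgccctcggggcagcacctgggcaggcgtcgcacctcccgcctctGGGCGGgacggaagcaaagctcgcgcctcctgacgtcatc

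PCNA, the sliding clamp and a common marker of proliferating cells, was not called. It had 185 and 186 normalized CPM in 2-D and 182 and 191 in 3-D, so the 2-D values lay between the 3-D values. Its log2 fold change was 0.0042 with a 95% interval from −0.067 to 0.075. The small loader subunits had log2 fold changes of 0.037 (RFC2), −0.079 (RFC3), 0.041 (RFC4) and −0.13 (RFC5), and none was called by edgeR's quasi-likelihood test or had an unadjusted p under 0.05. The lowest unadjusted p of these 4 was that of RFC5, 0.0507.

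Of the genes for single-stranded DNA and the lagging strand, 2 of 5 were called, beside 7.9% of all tested genes, both lower in 3-D and both subunits of replication protein A, the complex that coats unwound DNA. RPA3, its small subunit, lies on chromosome 7 from 7636518 to 7718607. It had 31.1 and 29.8 normalized CPM in 2-D and 23.6 and 24.2 in 3-D. The conditions stood well apart, and the gap between them exceeded the gap within either. RPA3 fell by 21.6%, a log2 fold change of −0.35 (SE 0.065, edgeR adjusted p = 0.00559), the largest decrease of the 42 genes. It was called without any 1 library, with values from −0.38 to −0.32. Of its exons, 3.65% overlap UMAD1 on the opposite strand.

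RPA1, the large subunit that binds DNA, lies on chromosome 17 from 1829702 to 1900082. It had 127 and 130 normalized CPM in 2-D and 119 and 114 in 3-D, with both 3-D libraries lower. RPA1 fell by 9.20%, a log2 fold change of −0.14 (SE 0.032, edgeR adjusted p = 0.0184). The call was lost without 2-D replicate 2 (edgeR adjusted p = 0.222) and with 2-D counts thinned to the mean 3-D total (0.0674), as well as with DESeq2 (0.124) and edgeR's likelihood ratio test (0.0909). RPA2, the middle subunit, was not called, with 43.0 and 42.1 normalized CPM in 2-D and 43.7 and 45.0 in 3-D and a log2 fold change of 0.061 (95% interval −0.049 to 0.17).

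The enzymes that finish lagging strand fragments were not called. FEN1, the flap endonuclease, had 77.0 and 79.3 normalized CPM in 2-D and 75.3 and 81.2 in 3-D, a log2 fold change of 0.00070. LIG1, the ligase that seals the fragments, had 58.7 and 58.6 in 2-D and 64.9 and 61.2 in 3-D, a log2 fold change of 0.11 (SE 0.042, edgeR adjusted p = 0.159). LIG1 was higher in both 3-D libraries, while FEN1 overlapped.

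**Figure D3:**
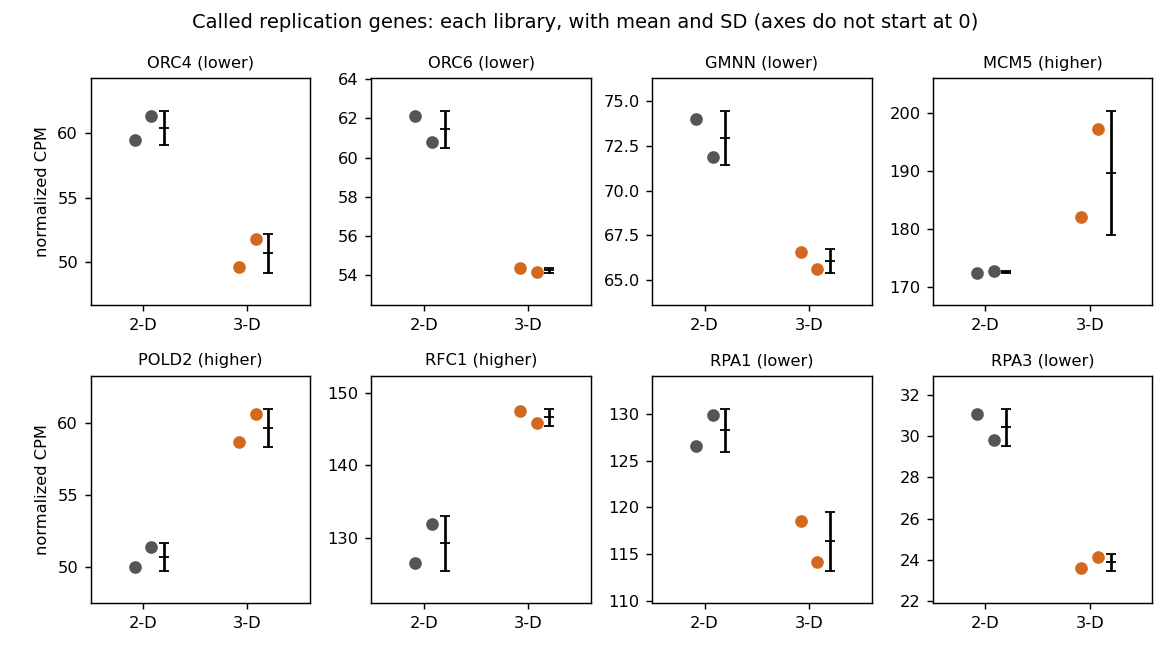
Normalized CPM (y axis, not starting at 0) of the 8 called genes in each library of the 2-D and 3-D cultures (x axis), with the mean and SD of 2 libraries beside the points. In each panel both 3-D libraries lie on the same side of both 2-D libraries, with the widest spread within a condition for MCM5 in 3-D, at 182 and 197.

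Subunits that work together in a protein complex differed in RNA level, from 1.66-fold to 10.6-fold between the highest and the lowest of a complex in 2-D. The 10.6-fold value rests on POLA2, whose counts are uncertain. Levels between genes are given as normalized CPM per kb of the canonical transcript. The counts cover all annotated exons of a gene, whose length can be far greater. It was 8005 bases against 1609 for POLD2, and 4309 against 1615 for ORC6. The order of subunits, the ratios and the shares below depend on this choice of length. Levels per length of all annotated exons were not compared. In the MCM2 to MCM7 ring, the 2-D means ran from 99.0 CPM per kb (MCM7) to 39.4 (MCM2), a ratio of 2.52, and the 3-D ratio was 2.67 with MCM4 at the top. MCM4 and MCM7, like MCM5 and MCM6, changed places in order between the cultures, but each of these pairs had libraries that overlapped in 3-D. In the origin recognition complex, the order of the means was ORC6, ORC3, ORC2, ORC1, ORC5 and ORC4 in both cultures, from 38.0 to 9.23 CPM per kb in 2-D. The libraries of ORC1 and ORC2 overlapped in 3-D. The ratio of ORC6 to ORC4 was 4.12 in 2-D and 4.34 in 3-D.

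**Figure D4:**
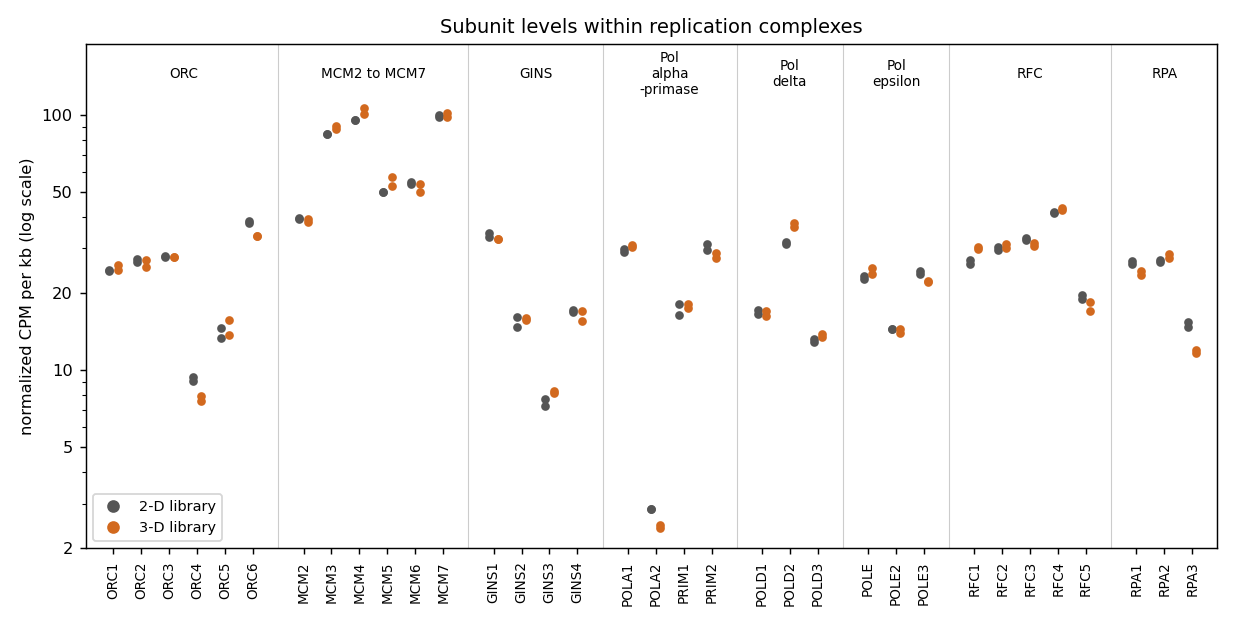
Normalized CPM per kb of canonical transcript (y axis, log scale) for the subunits of 8 replication complexes (x axis), with 1 point for each 2-D and each 3-D library. Within a complex the spread between subunits is wider than between cultures, as for POLA2 at 2.86 CPM per kb in 2-D against 30.4 for PRIM2. The counts of POLA2 are uncertain, since its exons overlap another gene on the same strand.

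The widest range was in polymerase alpha with primase, where PRIM2 had 30.4 CPM per kb and POLA2 2.86 in 2-D, a ratio of 10.6. In 3-D the highest subunit was POLA1 and the ratio to POLA2 was 12.5, although PRIM2 and POLA1 overlapped in 2-D. Both ratios rest on the uncertain counts of POLA2, of whose exons 16.8% overlap another gene on the same strand. In GINS the order was GINS1, GINS4, GINS2 and GINS3, and the ratio of the highest to the lowest was 4.54 in 2-D and 3.98 in 3-D, although GINS2 and GINS4 overlapped in 3-D. In the clamp loader RFC4 was the highest and RFC5 the lowest, with a ratio of 2.14 in 2-D and 2.41 in 3-D, and in replication protein A the ratio of RPA2 to RPA3 was 1.78 and 2.37. The narrowest range was in polymerase epsilon, at 1.66 in 2-D and 1.72 in 3-D. There POLE3 was above POLE in both 2-D libraries (24.4 and 23.9 against 22.8 and 23.4 CPM per kb) and below it in both 3-D libraries (22.4 and 22.2 against 23.8 and 25.2).

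The share of each subunit in the summed CPM per kb of its complex shows the same values on another scale. RPA3 made up 22.0% ± 0.528 (SD, n = 2) of replication protein A in 2-D and 18.5% ± 0.269 in 3-D, and RPA2 39.3% ± 0.392 and 43.9% ± 0.806. POLD2 made up 51.3% ± 0.358 of polymerase delta in 2-D and 55.0% ± 0.281 in 3-D, and POLD1 27.4% ± 0.304 and 24.8% ± 0.435. These shares rest in part on the uncertain counts of POLD1. RFC1 made up 17.7% ± 0.397 of the clamp loader in 2-D and 19.8% ± 0.548 in 3-D. ORC6 went from 27.0% ± 0.504 to 24.8% ± 0.300 of the origin recognition complex, and ORC4 from 6.56% ± 0.121 to 5.72% ± 0.115. The shares are a description and were not tested, and with 2 libraries each an exact permutation test could not give a p below 0.333.

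A wider list of 57 genes around replication gave 8 calls, 1 higher and 7 lower in 3-D. This share of 14.0% stands beside 7.9% of all tested genes. It equals the 14.0% called among the 10102 tested genes within the range of mean level of the core replication genes. Some of the 57 genes, such as POLD4, lie outside that range. The median log2 fold change of the 57 genes was −0.00084. Among the 10 fork partners CLSPN, the claspin adaptor of the replication checkpoint, was the gene called higher. It had 131 and 130 normalized CPM in 2-D and 144 and 140 in 3-D, a log2 fold change of 0.12 (SE 0.030, edgeR adjusted p = 0.0297), and the call was lost without either 2-D library. Without 2-D replicate 1 the number called lower was 3. The remaining subunits of the polymerases belong to this group and were not called. POLD4 lay near 1 normalized CPM in every library, and POLE4 had 7.90 and 8.31 in 2-D and 6.18 and 6.47 in 3-D (log2 fold change −0.36, edgeR adjusted p = 0.0757).

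Of 8 genes of nucleotide supply 3 were lower, where 3.36% of all tested genes were. DUT, which breaks down dUTP, had 71.5 and 68.3 normalized CPM in 2-D and 56.5 and 56.1 in 3-D, a log2 fold change of −0.31 (SE 0.040, edgeR adjusted p = 5.58e-04). RRM2B, the p53-regulated small subunit of ribonucleotide reductase, had a log2 fold change of −0.19, and TYMS, the thymidylate synthase, of −0.11. All 3 had both 3-D libraries below both 2-D libraries. Of 7 genes of primer removal and topoisomerases, DNA2, a nuclease and helicase for long flaps, was lower, with 89.1 and 95.1 normalized CPM in 2-D and 77.1 and 77.3 in 3-D (log2 fold change −0.25, edgeR adjusted p = 0.00166).

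Of 10 E2F and DP genes 2 were lower in 3-D, again beside 3.36% of all tested genes. E2F6, a member of the family that represses, had 25.8 and 25.0 normalized CPM in 2-D and 19.9 and 20.7 in 3-D, a log2 fold change of −0.33 (SE 0.069, edgeR adjusted p = 0.0122). E2F5, a member bound by pocket proteins, had a log2 fold change of −0.15 (0.0463 by the same adjusted test). Of 3 MCM relatives, MCMDC2, a gene known from meiosis, was lower, with 15.9 and 13.9 in 2-D and 11.5 and 9.99 in 3-D. Among 9 genes of origin firing, 6 of licensing control and 4 of chromatin assembly none was called by edgeR's quasi-likelihood test, where 4, 0 and 2 had an unadjusted p under 0.05.

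For comparison, 15 mitotic genes gave 4 calls higher and 1 lower in 3-D, beside 4.54% and 3.36% of all tested genes, with a median log2 fold change of 0.054. Their summed level was 2798 and 2801 normalized CPM in 2-D and 3010 and 2964 in 3-D, so both 3-D libraries were higher. The difference between the mitotic and the replication genes was not tested. Gene length moved little with the change. Spearman's rho between canonical transcript length and log2 fold change was 0.073 over the 42 genes. With the length of all annotated exons, a different measure, rho was 0.048 over 14305 tested protein-coding genes. The points share the same 4 libraries.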

How the data were processed

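Total RNA of 2-D and 3-D grown Elf1 cells was depleted of ribosomal RNA and sequenced with paired ends. According to the methods and the processing notes, the authors trimmed reads with Trim Galore 0.6.3, used HISAT2 2.1.0 to map them to hg38 and counted them on GENCODE genes with featureCounts 1.6.4. The strand setting is not given in the sources used here, so genes that overlap on opposite strands cannot be told apart. The deposited counts are whole reads per gene without normalization, 1 set per library. The deposited normalized signal is the count divided by 1 size factor per library, which the authors obtained with DESeq2 2.11.40.6. Further columns of that table hold the authors' comparison of the conditions and were not used.

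Counts were fitted in R 4.3.3 with the quasi-likelihood method of edgeR 4.0.16 after TMM normalization, using filterByExpr and a design of condition alone, over 22555 genes. Genes were called at an adjusted p below 0.05 (Benjamini-Hochberg, over all tested genes). Standard errors and 95% intervals come from the same fit. Names, positions and canonical transcripts are those of GENCODE 44 (60295 of 60564 identifiers matched). In all, 14 alternative settings fixed at the start, among them DESeq2 1.42.0 and limma 3.58.1, and 1 chosen after seeing the data are given in the closing section. Libraries of a condition differed by more than sampling noise (chi-square over degrees of freedom 2.45 in 2-D and 4.39 in 3-D), so each was kept as a replicate. Procedures were tested on simulated counts.

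The rule for named genes takes all 42 members, and of the related list every called gene with counts by group, and gives the mitotic list by counts only. POLD4 and POLE4 were named after their values were seen. Members, lists and motifs were chosen with earlier results of these data known. Near-identical copies were sought with minimap2 2.31-r1302, and no member had one over at least 80% of its transcript at 98% identity. FEN1 had an alignment at 95%. Tables and plots were made with Python 3.11.15, pandas 2.3.3, scipy 1.17.1 and matplotlib 3.10.9.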

Additional observations from a re-analysis of the deposited data

How the results depend on the processing

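Over 15 alternatives, ORC4, POLD2 and RPA3 were called in all 15, RFC1 in 14, ORC6 and RPA1 in 11, GMNN in 7 and MCM5 in 6, and the sign of all 8 genes held in all 15. Of the 42 genes, 3 were called higher and 5 lower, and the number called lower was 3 with 2-D counts thinned to the mean 3-D total, 2 with DESeq2, 2 with edgeR's likelihood ratio test and 10 with library size only. Library size only moved the median of all tested genes to −0.065 and that of the 42 genes to −0.039, changed the sign of 13 of the 42 genes, none of them called by edgeR's quasi-likelihood test with TMM, and split the calls over all genes into 514 higher and 1879 lower. Leaving out 1 library at a time gave 1 (without 2-D replicate 1) to 5 (without 3-D replicate 1) genes higher and 2 (without 2-D replicate 2) to 6 (without 3-D replicate 1) lower. In these fits the lone library of a condition is assumed to vary like the other condition. Of the 57 related genes, 1 was called higher and 7 lower. The number higher was 0 with DESeq2, with the likelihood ratio test, with library size only, with limma-trend and with an offset for exonic length (chosen after seeing the data), 3 with no filter on low counts and 3 with the replicate block. The number lower was 3 with DESeq2 and 11 with library size only. Leaving out 1 library gave 0 to 4 higher, with 0 without either 2-D replicate, and 3 to 7 lower, with 3 without 2-D replicate 1. The other alternatives kept these counts within 1.5 times, and the cause of the shifts was not tested. Over all genes DESeq2 called 509 higher and 285 lower, and edgeR's likelihood ratio test 651 and 488.

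The labels do not say whether libraries with the same number share anything beyond that number. Their deviations from the condition means had a correlation of −0.0079, a value that cannot settle this with 2 libraries for each condition. With the replicate block, 4 of the 42 genes were called higher, MCM4 added, and 5 lower. Precision is limited by 2 libraries for each condition and by 18276147 counts in the smallest, and counting error is largest for POLA2.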

Other observations

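Ratios of CPM per kb between subunits or partners, chosen after the values were seen and given without a test, were compared library by library. The ratio of GMNN, the inhibitor, to CDT1, its target, was 3.83 and 3.81 in 2-D and 3.48 and 3.19 in 3-D. The ratio of RPA3 to RPA2 was 0.567 and 0.555 in 2-D and 0.423 and 0.421 in 3-D, and the ratio of RFC1 to RFC5 was 1.36 and 1.37 in 2-D and 1.77 and 1.62 in 3-D. POLD2 to POLD1 was 1.87 and 1.86 in 2-D and 2.24 and 2.20 in 3-D, where the counts of POLD1 are uncertain. In all 4 ratios the libraries of the 2-D and 3-D cultures did not overlap. Each numerator is a called gene whose own libraries did not overlap, as held for 50.5% of all tested genes. The ratios are therefore not separate support for the calls. The other ratios computed, of RPA3 to RPA1, ORC4 to ORC3, ORC6 to ORC1 and MCM5 to MCM2, did not overlap either.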
